A study of Mus musculus with 20 samples.

Results

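The genes described here are the enzymes and the receptor of the prostaglandin pathway in mouse ovarian surface epithelial (OSE) cells. They were taken from a list of 10 genes (*Pla2g4a*, *Ptgs1*, *Ptgs2*, *Ptgis*, *Ptges*, *Ptges2*, *Ptges3*, *Ptgds*, *Ptgr1* and *Ptger4*), and 9 of the 10 were among the 14299 genes of the count table. The receptor *Ptger4* was not in the count table and was not analysed here. Per the study's methods, that table was limited to genes detected in at least 10 cells. Single OSE cells, which form the epithelium that covers the ovary, from primary culture were loaded on the Fluidigm C1, where every cell is held and lysed in its own chamber. The reads come from the 3′ ends of transcripts, and each column of the chip gave 1 cDNA library.

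Both groups were wild-type primary cultures with no transgene, kept in hormone-free medium for 48 h and then for 15 days with 100 nM of the estrogen estradiol (E2) or with 0.0002% ethanol, its vehicle (control). The control took columns 1 to 10 and E2 took columns 11 to 20, of which column 13 had no cells in the table, so that 10 control and 9 E2 libraries were compared. All columns of a condition were loaded with 1 cell suspension. The p-values therefore measure the spread between libraries of 1 suspension, and E2 and the suspension cannot be told apart. The study's own labels for 2 clusters divide the 589 cells into cluster 1 (126 control and 42 E2-treated cells), which it treats as unresponsive to E2, and responsive cells (203 control and 218 E2-treated). Levels are CPM, the counts of a gene scaled to a common total, of counts summed over the cells of 1 library and 1 cluster. They are not scaled by transcript length, so that no gene is compared with another in level.

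Prostaglandins are lipid signals made on demand from arachidonic acid, which a phospholipase frees from membranes. Cyclooxygenases turn it into the unstable prostaglandin H2, and terminal synthases turn that into prostacyclin, prostaglandin E2 or prostaglandin D2, which act on receptors at the cell surface. In the ovary this pathway is best known for its part in ovulation, where the follicle breaks through the surface epithelium.

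Libraries held 3867791 to 5078340 reads in control columns and 2693258 to 4037847 reads in E2 columns. Mitochondrial reads made up a median of 2.08% in control responsive cells, 2.43% in E2-treated ones, 2.53% in control cells of cluster 1 and 3.55% in E2-treated ones. All 9 listed OSE markers were in the table, and their summed level was 3083 to 6379 CPM over all libraries and both clusters. In cluster 1, 1 of the 9 was at 0 in every control library and 1 in every E2 library, while none was at 0 throughout in responsive cells. Markers of stromal fibroblasts, of which 5 of 7 were in the table, summed to 1669.8 to 4653 CPM in responsive cells and to 2671 to 10445 CPM in cluster 1. E2 column 15 stood apart from the other libraries in both clusters. Its median correlation with the others over 6823 genes of responsive cells was 0.63, against 0.77 to 0.83 for the other libraries, and 1018 genes lay over 4-fold from the median there, against 69 to 310. In cluster 1 this column held 3 cells, and its median correlation was 0.39 against 0.50 to 0.63. Values without this column are given beside the changes with E2 in members that it moved most.

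*Ptgis*, the synthase that makes prostacyclin, was the member that fell with E2. The gene lies at chr2:167191805-167240604 on the minus strand (GRCm38, GENCODE M21). The antisense genes *Gm14291* and *1110018N20Rik* overlap it and were not in the table, and whether reads of the opposite strand were counted was not given in the sources used here. Its level in responsive cells was 621 ± 101 CPM in control libraries (SD, n = 10) and 352 ± 106 CPM in E2 libraries (n = 9). The lowest, median and highest control libraries had 496, 598 and 800.4 CPM, and those of E2 had 179, 363 and 504 CPM. Of the 9 E2 libraries, 8 lay below every control library, and the remaining one overlapped only the bottom of the control range. The fitted log2 fold change was -0.83 (SE 0.16, 95% interval -1.16 to -0.49, edgeR adjusted p = 0.0052), a level 1.77 times lower. Without column 15 it was -0.75 (SE 0.15, edgeR adjusted p = 0.0030). The call was kept in all 26 alternative settings that changed the fit, with log2 fold changes of -0.91 to -0.74.

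Among the 8 members that passed the filter on low counts, *Ptgis* was the 1 called at an adjusted p below 0.05 with an absolute log2 fold change above 0.5, beside 1.37% of all 10265 genes tested in responsive cells and 0.526% called lower. The study had already named *Ptgis* as a top marker of its control-specific cluster from these same cells, so this call is not independent of that choice. Apart from these cells, the study stained the protein. It reported the highest staining in control cultures, and faint or absent staining in columnar and stratified surface cells of E2-treated mice. The median log2 fold change over the 8 members was 0.15, against 0.02 over all genes. Bulk sums cannot tell fewer cells with the transcript from less transcript per cell, so the share of cells with a read was measured as well. With every cell thinned to a depth of 20000 reads, *Ptgis* was read in 96.9% ± 3.9 of the responsive cells of a control library (SD, n = 10), with a lowest library of 88.0%, a median of 97.9% and a highest of 100.0%. In E2 libraries the share was 77.3% ± 13.8 (n = 9), with 54.2%, 81.8% and 100.0%. The ranges overlapped, and the difference of -19.6 percentage points gave p = 0.00025 by exact two-sided permutation of the libraries, or 0.030 adjusted over 8289 genes. This was again the 1 member called, beside 1.46% of all genes and 1.01% called lower. The adjusted p ranged from 0.0094 to 0.060 when each library was left out in turn, with the call lost in 10 of 19 cases (control columns 1, 3, 4, 5, 6, 8, 9 and 10 and E2 columns 12 and 15). Without column 15 the difference was -16.7 points (adjusted p = 0.053, exact permutation). Among cells with a read at full depth, pooled over libraries and with no test, the median was 516 CPM in 199 control cells and 319.8 CPM in 188 E2-treated cells. The median depth was 143233 reads in control and 117809 reads in E2-treated responsive cells.

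**Figure D1:**
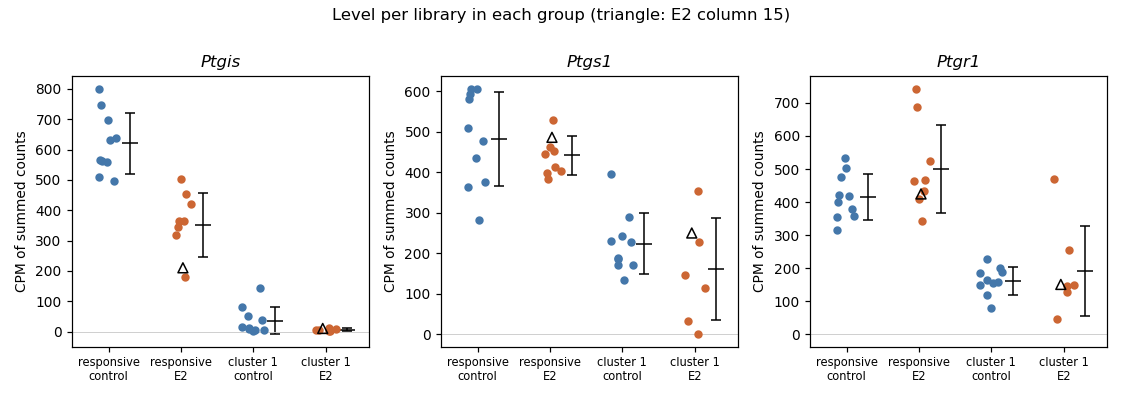
Level of *Ptgis*, *Ptgs1* and *Ptgr1* in each library (points, CPM of summed counts on a linear axis) for control (blue) and E2 (orange) libraries of responsive cells and cluster 1, with mean ± SD beside each group. *Ptgis* was at 179 to 504 CPM in E2 libraries and 496 to 800.4 CPM in control libraries of responsive cells, and at most 144 CPM in cluster 1.

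In cluster 1 *Ptgis* was low but still read in 71 of 126 control and 14 of 42 E2-treated cells at full depth. Its level there was 36.3 ± 45.5 CPM in control libraries (SD, n = 10), with 2.45, 12.6 and 144 CPM as the lowest, median and highest. In the 7 E2 libraries with at least 3 cells it was 6.10 ± 4.26 CPM, with 1.29, 5.07 and 12.6 CPM. The highest cluster 1 library lay below the lowest responsive library. Over the 17 libraries with both clusters the mean for cluster 1 came to 4.77% of the responsive mean and was lower in all 17, with a fitted log2 difference of -4.68 (SE 0.40). Expression in these cells defined the clusters, so this and all other differences between them are descriptions with no test. Of the 475 reads of *Ptgis* in control cells of cluster 1, 28.4% came from 1 cell. The E2 change within cluster 1 was -2.57 (SE 0.94, 95% interval -4.51 to -0.63) and did not pass (unadjusted p = 0.011, edgeR adjusted p = 0.47). The interaction of E2 with cluster was -1.90 (SE 0.76, edgeR adjusted p = 0.31), so a different change with E2 in the 2 clusters was not shown. Neither that fit nor the one between clusters had a term for the library that paired sums share. In 9 other settings, among them the library as a block, the interaction was -2.64 to -0.58. Over all cells, of which cluster 1 was 38.3% in control and 16.2% in E2, the change of *Ptgis* was -0.43 (SE 0.16, edgeR adjusted p = 0.23).

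Along the trajectory that the authors built with monocle, *Ptgis* pooled over cells was at 631 CPM in the 143 control cells of state 2 and at 605 CPM in the 14 control cells of state 7. State 4 held both conditions and had 476 CPM in 21 control cells and 378 CPM in 42 E2-treated cells. In states 5 and 6, all E2-treated, it was at 305 CPM in 151 cells and 444 CPM in 21 cells. State 1 held cluster 1 together with 22 responsive control cells, and *Ptgis* stood at 445 CPM in those responsive cells, at 32.6 CPM in the 126 control cells of cluster 1 and at 5.74 CPM in 41 E2-treated ones. Levels thus differed by cluster label within a state. The trajectory was built from these cells, and the values carry no test.

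Arachidonate is released by *Pla2g4a*, the cytosolic phospholipase A2. The gene lies at chr1:149829618-149961290 on the minus strand, on the same chromosome as *Ptgs2* at chr1:150100031-150108227 on the plus strand. In responsive cells the lowest, median and highest control libraries had 85.3, 117 and 140.3 CPM, and the E2 libraries had 74.9, 158 and 288 CPM. Of the 9 E2 libraries, 5 lay above every control library and 1 lay below. The log2 fold change was 0.46 (SE 0.20, edgeR adjusted p = 0.43) and 0.31 (SE 0.18) without column 15, which was the highest. Cluster 1 had 173 ± 69.8 CPM in control libraries (SD, n = 10) and 186 ± 211 CPM in E2 libraries (n = 7), where column 15 with 3 cells gave 662 CPM and the other 6 had 75.1 to 154 CPM. The E2 change in cluster 1 was 0.12 with column 15 and -0.66 without it, neither of which passed. *Pla2g4a* was the member with the highest ratio of cluster 1 to responsive cells, with a log2 difference of 0.40 (SE 0.23), or 0.18 without column 15, and was higher in 11 of 17 libraries. Of its values above 0, 59.2% were whole numbers, the lowest share of the 9 members, and an estimated count need not be whole where a read fits several transcripts.

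The cyclooxygenases *Ptgs1*, the constitutive form in most tissues, and *Ptgs2*, the inducible form, were read in different numbers of cells. *Ptgs1* was read in 199 of 203 control and 202 of 218 E2-treated responsive cells, and *Ptgs2* in 91 and 73. The 250 bases before the RefSeq start of each gene (GRCm38.p6, plus strand, 5′ to 3′) are shown because this pair makes the same product under different promoters. Capitals mark GGTCA, the half-site of the estrogen response element, and CCGCCC, the GC box, searched on both strands.
Ptgs1, chr2:36230176-36230425: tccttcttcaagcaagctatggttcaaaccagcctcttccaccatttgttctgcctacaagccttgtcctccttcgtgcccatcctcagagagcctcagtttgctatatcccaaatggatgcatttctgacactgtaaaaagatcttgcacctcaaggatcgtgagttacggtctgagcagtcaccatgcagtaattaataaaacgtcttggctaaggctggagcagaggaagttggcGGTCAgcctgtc
Ptgs2, chr1:150099781-150100030: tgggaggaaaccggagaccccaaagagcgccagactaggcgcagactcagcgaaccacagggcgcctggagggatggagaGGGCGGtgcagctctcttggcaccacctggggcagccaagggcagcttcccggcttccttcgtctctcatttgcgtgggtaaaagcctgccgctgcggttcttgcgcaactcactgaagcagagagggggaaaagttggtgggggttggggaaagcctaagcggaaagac
The *Ptgs1* window held 1 half-site, and the *Ptgs2* window held 1 GC box on the minus strand. Of all 32851 upstream windows of this length, 35.2% held the half-site and 32.7% the GC box, so that neither match sets these genes apart. The full estrogen response element, the half-site and its inverted copy 3 bases on, was in none of the 10 windows of members and in 0.0639% of all windows, and the TATA box TATAAA, in 12.4% of all, was in neither cyclooxygenase window. The 10 windows included *Ptger4* and more than 1 of *Pla2g4a*, and *Ptgis* had no matched window. Exons of *Ptgs2os* overlap the *Ptgs2* window.

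*Ptgs1* had 281, 494 and 606 CPM in the lowest, median and highest control libraries of responsive cells and 382, 446 and 529.9 CPM in those of E2. The E2 libraries lay within the control range, and the log2 fold change was -0.14 (SE 0.14, 95% interval -0.42 to 0.15, edgeR adjusted p = 0.87). The share of responsive cells with a read of *Ptgs1* was 93.3% ± 5.3 in control libraries and 83.9% ± 7.2 in E2 libraries (SD, n = 10 and 9), a difference of -9.39 points that did not pass the adjustment (p = 0.0056, adjusted p = 0.14, exact permutation). In cluster 1 its level was 223 ± 75.5 CPM in control and 161 ± 126 CPM in E2 libraries. The mean for cluster 1 was 42.2% of the responsive mean and lower in all 17 libraries, with a log2 difference of -1.27 (SE 0.26). The model *Gm43621* overlaps *Ptgs1* on the other strand and was not in the table.

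*Ptgs2* had 22.0, 51.8 and 112 CPM in control and 20.6, 48.5 and 109 CPM in E2 libraries of responsive cells, so that the ranges overlapped. The highest E2 value was that of column 15, and the other 8 libraries reached at most 69.1 CPM. The log2 fold change was -0.28 (SE 0.33, 95% interval -0.95 to 0.40, edgeR adjusted p = 0.89), and -0.52 (SE 0.31, edgeR adjusted p = 0.68) without column 15. In E2-treated responsive cells 1 cell gave 20.0% of its reads. In cluster 1 the control libraries ranged from 0 to 78.4 CPM with a median of 31.7 CPM. The E2 libraries of cluster 1 had a median of 22.0 CPM and a highest value of 484 CPM in column 15. The E2 change in cluster 1 was 1.39 with that column and -0.35 without it (edgeR adjusted p = 0.80 and 1.00), and the difference between clusters was -0.02 with it and -0.68 without it. The direction of *Ptgs2* in cluster 1 thus rested on 1 library of 3 cells.

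Of the 3 prostaglandin E synthases, *Ptges2* and *Ptges3* were tested, and neither passed for E2 in any comparison. *Ptges2*, which is bound to the Golgi membrane, had 9.0, 16.7 and 40.0 CPM in control and 16.2, 27.9 and 61.5 CPM in E2 libraries of responsive cells. The E2 value was above the control median in 8 of 9 libraries, and 2 lay above every control library, with a log2 fold change of 0.76 (SE 0.37, unadjusted p = 0.049, edgeR adjusted p = 0.50). In cluster 1 *Ptges2* had 24.3 ± 21.4 CPM in control libraries (n = 10) and 11.1 ± 17.4 CPM in E2 libraries (n = 7), of which 4 were at 0. *Ptges3*, the cytosolic synthase also known as the p23 co-chaperone, had 201, 228 and 325 CPM in control libraries and 181, 256 and 1012 CPM in E2 libraries. The value of 1012 CPM was that of column 15, and the others of E2 reached at most 289 CPM. The log2 fold change of *Ptges3* was 0.39 (SE 0.24, edgeR adjusted p = 0.65) with column 15 and -0.02 (SE 0.13) without it, so that its direction rested on that library. A pseudogene, *Ptges3-ps*, is annotated, and reads of near-identical copies may be divided between them.

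*Ptges*, the inducible microsomal synthase, was too sparse to be tested. It had 15 reads in 5 control cells and 65 reads in 3 E2-treated responsive cells, 63 of them in 1 cell of column 11. It was read in 0 of 126 control cells of cluster 1, which allows a share of up to 2.38%, and in 2 of 42 E2-treated ones. Whether it differed was not detectable at this depth.

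*Ptgds*, the lipocalin-type prostaglandin D synthase, was read in 34 of 203 control and 36 of 218 E2-treated responsive cells. Its libraries had 0, 21.4 and 54.1 CPM in control and 1.30, 24.8 and 49.4 CPM in E2, overlapping over the whole range. The log2 fold change was 0.04 (SE 0.59, 95% interval -1.18 to 1.25, edgeR adjusted p = 0.99). Without column 15, the lowest E2 library, the E2 range began at 14.9 CPM and the log2 fold change was 0.20 (SE 0.54). In cluster 1 it was read in 9 of 126 control and 2 of 42 E2-treated cells and was not tested there for E2. The log2 difference of cluster 1 from responsive cells was -0.97 (SE 0.73).

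**Figure D2:**
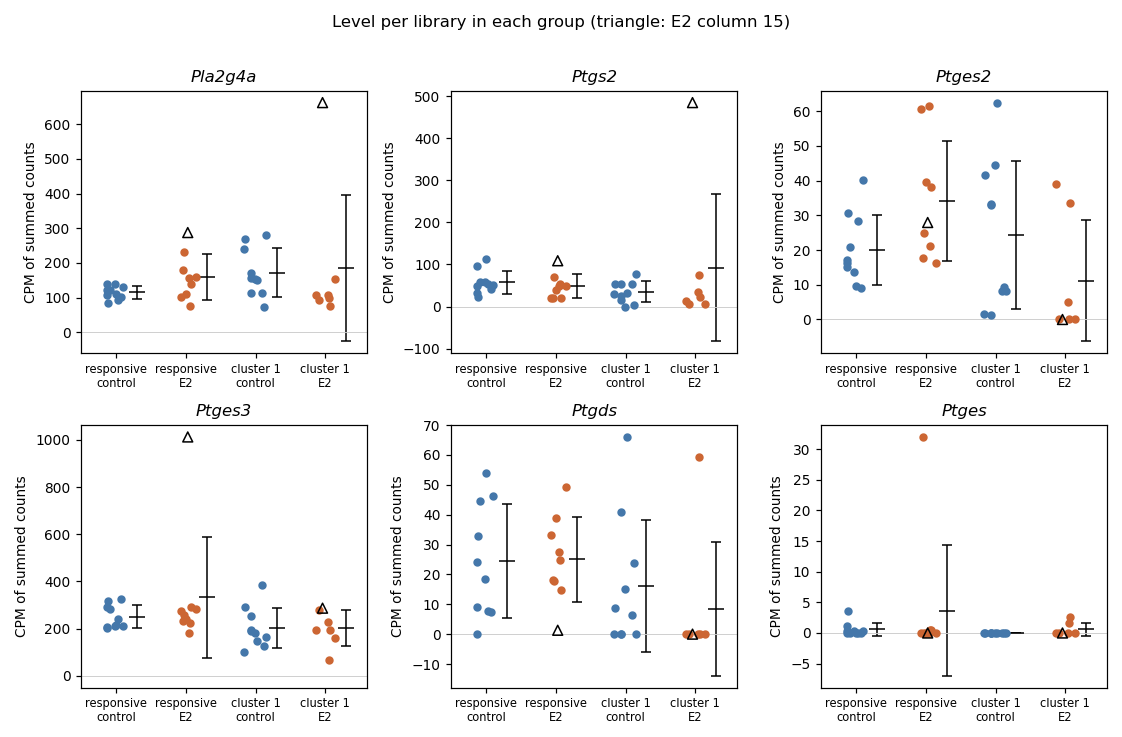
Level of the 6 other members in each library (points, CPM of summed counts), grouped as in the plot of *Ptgis*, with mean ± SD beside each group and E2 column 15 as an open triangle. Column 15 was the highest E2 library for *Ptges3* in responsive cells (1012 CPM) and for *Pla2g4a* and *Ptgs2* in cluster 1 (662 and 484 CPM).

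*Ptgr1*, prostaglandin reductase, inactivates prostaglandins and leukotriene B4. It had 316, 408 and 534 CPM in the lowest, median and highest control libraries of responsive cells and 344, 465 and 743 CPM in those of E2, with 7 of 9 E2 libraries above the control median and 2 above every control library. The log2 fold change was 0.26 (SE 0.14, edgeR adjusted p = 0.61). Over all cells it was 0.48 (SE 0.15, edgeR adjusted p = 0.11). In 6 alternative settings with all libraries it was 0.34 to 0.497, under the fold threshold of 0.5, though the adjusted p was below 0.05 in at least 1 of them. In cluster 1 *Ptgr1* had 163 ± 42.2 CPM in control (n = 10) and 192 ± 137 CPM in E2 libraries (n = 7), a mean at 39.3% of the responsive one over the paired libraries, lower in 16 of 17 libraries and by 1.36 on the log2 scale (fitted difference -1.36, SE 0.18). Its upstream bases outside annotated exons (GRCm38.p6, minus strand, 5′ to 3′) are shown as those of a member that was lower in cluster 1 along with *Ptgs1*. Capitals mark the GC box.
Ptgr1, chr4:58987120-58987328: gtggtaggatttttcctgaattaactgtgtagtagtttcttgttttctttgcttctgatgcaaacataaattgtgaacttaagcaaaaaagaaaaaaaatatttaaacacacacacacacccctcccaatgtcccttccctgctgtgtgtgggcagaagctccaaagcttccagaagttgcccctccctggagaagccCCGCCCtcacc
The *Ptgr1* and *Ptgs1* windows shared neither the half-site nor the GC box. Upstream sequences of 9 of the 10 listed genes were matched in RefSeq by symbol, all but that of *Ptgis*.

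Between the clusters, 3 of the 8 members tested (*Ptgis*, *Ptgr1* and *Ptgs1*) were lower in cluster 1 by more than 1 on the log2 scale, and none was higher. Over all 11398 genes, 24.5% were past this fold, 14.8% lower and 9.73% higher. The median over the members was -0.73, against -0.06 over all genes. With another scaling (RLE), the direction of *Ptgs2* turned to 0.18, and those of *Ptgis*, *Ptgr1* and *Ptgs1* stayed lower. The count past the fold was 6 of 8 with limma-voom and 5 with no gene filter, with equally weighted cells or with the library as a block. Without the filter *Ptges* was fitted as well. More genes of the whole table were also past the fold in these 4 settings, with 3450 of 11398, 4001 of 14290, 3299 of 11398 and 4063 of 11398, against 2794. In the same order the median over all genes was -0.30, -0.14, -0.38 and -0.42. Beside these differences, the summed stromal fibroblast markers were at 2717 to 4394 CPM in control libraries of cluster 1 and at 1669.8 to 2191 CPM in those of responsive cells, with *Pdgfrb* and *Lum* not in the table. Theca markers, 3 of 6 in the table, summed to 74.8 to 493 and to 16.5 to 64.5 CPM in the same libraries. In that order, granulosa markers (2 of 7 in the table) summed to 5.32 to 192 and 5.55 to 33.8 CPM. Muscle and pericyte markers (4 of 7) summed to 1.47 to 1343 and 0 to 47.2 CPM, but their medians were 4.38 and 10.3 CPM, lower in cluster 1. Leukocyte markers (4 of 7) summed to 17.3 to 94.6 and 58.1 to 160.3 CPM, and endothelial markers (4 of 7) to 361 to 670.0 and 468 to 813 CPM. The granulosa markers *Fshr*, *Amh* and *Foxl2*, the theca marker *Cyp17a1* and the leukocyte marker *Lyz2* were not in the table. The part of these cell types in the differences was not tested.

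For E2, none of the members passed in cluster 1 (7 tested, beside 0.0839% of 8340 genes), over all cells (8 tested, beside 1.62% of 10945 genes) or in the interaction (8 tested, beside 0.184% of 11398 genes) with edgeR, DESeq2 or limma-voom. At an unadjusted p below 0.05 with edgeR there was 1 member in cluster 1, 2 over all cells and 1 in the interaction, against 622, 1291 and 1244 genes in all. Within cluster 1 the intervals were wide, for example -1.54 to 0.66 for *Ptgs1*, which holds a change of the size measured for *Ptgis* in responsive cells, and -0.44 to 1.02 for *Ptgr1*.

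**Figure D3:**
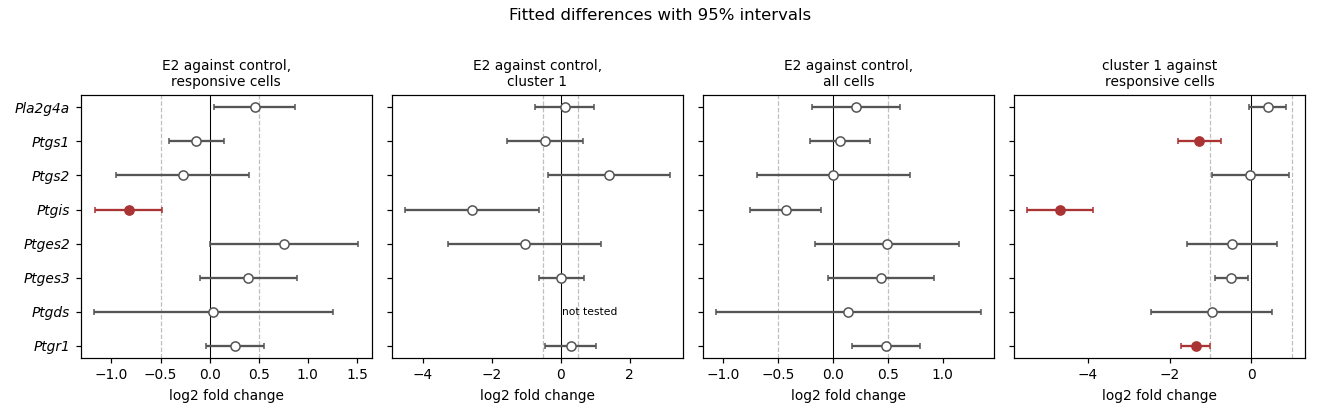
Fitted log2 fold change (points) with 95% interval (bars) of the 8 members that passed the filter, for E2 against control in responsive cells, cluster 1 and all cells, and for cluster 1 against responsive cells, with dashed lines at the fold thresholds and filled red points past the call rule. *Ptgis* was at -0.83 for E2 in responsive cells and, with *Ptgs1* and *Ptgr1*, past the fold between clusters.

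The route to prostacyclin needs the phospholipase, a cyclooxygenase and *Ptgis* in turn, so their reads were counted cell by cell at 20000 reads per cell. At least 1 cyclooxygenase was read in 190 of 203 control responsive cells (93.6%, exact 95% interval 89.3 to 96.5) and in 190 of 218 E2-treated ones (87.2%, 82.0 to 91.3). A cyclooxygenase together with *Ptgis* was read in 184 of 203 control cells (90.6%, 85.8 to 94.3) and 150 of 218 E2-treated cells (68.8%, 62.2 to 74.9). In cluster 1 this pair was read in 21 of 126 control cells (16.7%, 10.6 to 24.3) and 2 of 42 E2-treated cells (4.76%, 0.582 to 16.2). All of *Pla2g4a*, a cyclooxygenase and *Ptgis* were read in 47.8% of control and 39.0% of E2-treated responsive cells. Without thinning, the share with a cyclooxygenase and *Ptgis* was 97.5% in control and 81.2% in E2-treated responsive cells. In cluster 1 the pair was read without thinning in 63 of 126 control cells and 12 of 42 E2-treated cells, so its low share there depended on depth. *Ptgs2* without *Ptgs1* was rare, in 1 of 203 control and 6 of 218 E2-treated responsive cells at equal depth. These shares are over cells, which are not replicates, and the intervals cover counting error only. The shares expected from each gene alone were not calculated, so whether the reads went together within cells was not tested.

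**Figure D4:**
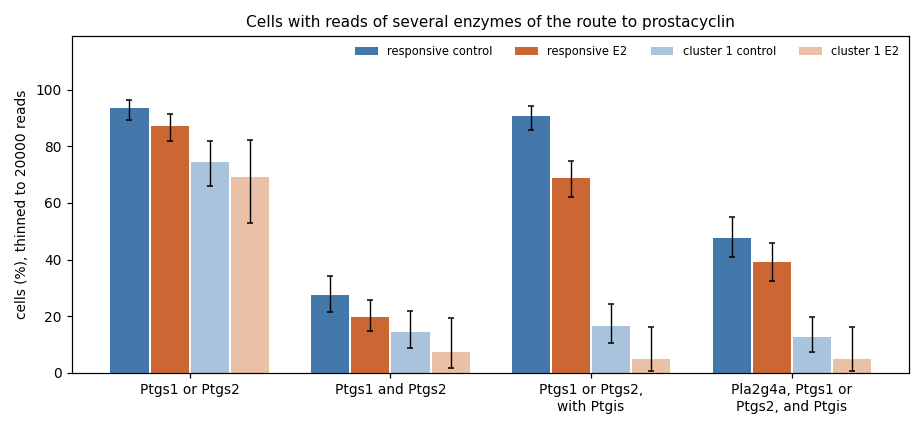
Share of cells (bars, percent, with exact 95% intervals over cells) with reads of the named genes after thinning to 20000 reads, in responsive and cluster 1 cells of each condition. The pair of a cyclooxygenase and *Ptgis* was read in 90.6% of control and 68.8% of E2-treated responsive cells, and in 16.7% and 4.76% of cluster 1 cells.

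Among the other members the share of responsive cells with a read moved less than for *Ptgis*. At equal depth the largest differences after *Ptgis* and *Ptgs1* were -8.61 points for *Ptges3* and -6.54 points for *Ptgs2* (adjusted p = 0.43 and 0.57, exact permutation). *Ptges2* and *Ptgr1* were read in 5.17 and 2.38 points more cells with E2, neither of which passed (adjusted p = 0.43 and 0.83, exact permutation).

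**Figure D5:**
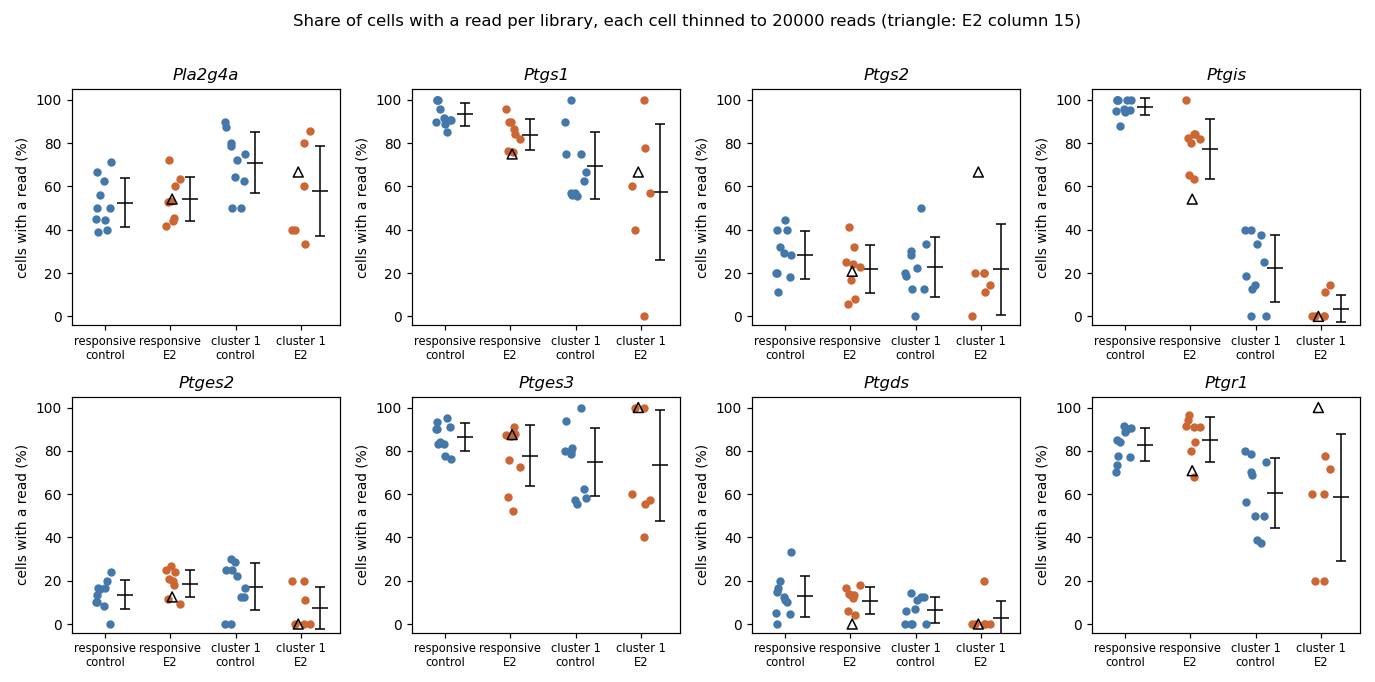
Share of cells with a read of each of 8 members in every library (points, percent, each cell thinned to 20000 reads), in the same 4 groups, with mean ± SD beside each group and column 15 as an open triangle. For *Ptgis* the control libraries of responsive cells lay at 88.0% to 100.0% and the E2 libraries at 54.2% to 100.0%.

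Further genes around the pathway came from 6 lists of 104 genes, of which 66 were in the table and 49 were tested in responsive cells. With E2, 3 of the 49 fell and 1 rose, beside 1.37% of all genes called and 0.526% called lower. The lists were chosen with earlier results of these data known, and the study had already reported *Fos* as higher with E2. The rates of called genes in the lists are therefore not independent of that choice. Over all cells 2 of 53 rose and 3 fell, beside 1.62% of all genes, and none passed in cluster 1 (of 41) or in the interaction (of 53). The 5 called over all cells were *Mboat7*, *Nfkbia* and *Fos*, described below, and *Mgst3* and *Tnfrsf1a*, named after their values were seen. *Mgst3*, a microsomal glutathione transferase, rose by 1.53 (SE 0.40, edgeR adjusted p = 0.045) over all cells, against 1.44 (SE 0.38, edgeR adjusted p = 0.060) in responsive cells. *Tnfrsf1a*, a receptor of tumor necrosis factor, was at -0.63 (SE 0.16, edgeR adjusted p = 0.044) over all cells. Of the 14 genes of arachidonate release and re-esterification, 2 fell, and the median was 0.01. *Mboat7*, the acyltransferase that puts arachidonate back into phosphatidylinositol, went from 108 ± 32.3 to 46.8 ± 15.5 CPM (log2 fold change -1.21, SE 0.23, edgeR adjusted p = 0.0030). With cells thinned to 20000 reads its adjusted p was 0.061. *Pla2g16*, a phospholipase best known in fat tissue, went from 341 ± 77.1 to 199 ± 62.9 CPM (-0.78, SE 0.17, edgeR adjusted p = 0.013). *S100a10*, *Anxa1*, *Acsl4* and *Lpcat3* did not pass, with log2 fold changes of 0.34, -0.31, 0.07 and 0.35.

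None of the 10 other prostanoid synthases, inactivating enzymes and transporters passed, with a median of 0.01. *Akr1b3*, an aldose reductase that can make prostaglandin F2-alpha, was at 1570.0 ± 211 and 1612 ± 219.7 CPM (0.03, SE 0.11). *Akr1b8*, *Ptgr2* and *Cbr1* had log2 fold changes of -0.10, -0.02 and 0.45. Of 12 other prostanoid receptor genes 4 were in the table and 1 was tested, the receptor regulator *Ptgfrn*, at 0.43 (SE 0.34). In the lipoxygenase and leukotriene branch none of 5 passed in responsive cells, and *Mgst3* passed over all cells. Those with the highest mean CPM, *Mgst2*, *Lta4h*, *Cysltr1* and *Ggt5*, had log2 fold changes of -0.33, 0.21, -0.83 and -0.22.

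Of 16 regulators of *Ptgs2*, 1 rose and 1 fell. *Nfkbia*, the inhibitor that holds NF-kappa-B in the cytoplasm, fell from 270.4 ± 56.7 to 159 ± 27.8 CPM (-0.78, SE 0.15, edgeR adjusted p = 0.0030). *Fos*, a subunit of the AP-1 factor, rose from 1049 ± 228 to 1708 ± 453 CPM (0.69, SE 0.15, edgeR adjusted p = 0.0087). *Il1r1*, *Egr1*, *Cebpb* and *Hif1a* did not pass, at 0.10, -0.38, -0.40 and 0.35. None of the 3 ovulation genes tested (*Cited2*, *Adamts1* and *Vcan*) passed.

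Between clusters, 3 of 53 listed genes were past the fold upwards and 13 downwards, beside 9.73% and 14.8% of all genes. *Il1r1*, the receptor of interleukin 1, a known inducer of *Ptgs2*, was at 293 and 318 CPM in control and E2 responsive libraries and at 40.3 and 28.3 CPM in cluster 1 (log2 difference -3.12, SE 0.30). *Fos* and *S100a10* were also lower in cluster 1, by 1.61 and 2.12 on the log2 scale (differences -1.61 and -2.12). *Akr1b8* was higher (1.26, SE 0.17). *Akr1c18*, a progesterone-inactivating enzyme of the prostaglandin F synthase family and named after its values were seen, was at 0.913 and 0.519 CPM in responsive cells and at 42.7 ± 29.2 and 54.8 ± 123 CPM in cluster 1 (5.88, SE 0.84).

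The genes whose level over the 19 responsive sums was most like that of each member with at least 50 CPM were found by Pearson's r of log2 CPM. For *Ptgis* they were *Ndrg1* (r = 0.90, with 0.52 within control and 0.94 within E2 libraries), *Gm4617* (0.85) and *Capns1* (0.85), and without the 2 libraries farthest from the median of *Ptgis* these were 0.87, 0.71 and 0.68. *Capns1* had 0.24 within control and 0.84 within E2 libraries. For *Ptges3* they were *Gm21596*, *Sumo2* and *Id3*, at 0.91, 0.91 and 0.90, which dropped to 0.61, 0.65 and 0.58 without column 15. The 3 genes most like each other member had r of 0.79 to 0.77 for *Pla2g4a* (*Cdc27*, *Sdhaf4* and *Dmap1*), 0.80 to 0.74 for *Ptgs1* (*Ndufaf4*, *Rnf139* and *Sil1*), 0.78 to 0.74 for *Ptgs2* (*Glb1l*, *Capn7* and *Ttc21b*) and 0.75 to 0.72 for *Ptgr1* (*Nudt6*, *AU022252* and *Abhd5*). Those of *Pla2g4a* were 0.71, 0.67 and 0.68 without column 15, and *Sdhaf4* had -0.41 within control and 0.91 within E2 libraries. The points of 1 condition share a cell suspension, and these are the highest values out of all genes tested, so they are given as a description.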

How the data were processed

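The deposited values were estimated counts for each gene in each cell, obtained per the submitters' processing notes with kallisto 0.44.0 and tximport on GRCm38, the deposited percent of mitochondrial reads, and cell labels. No molecular identifiers were used, so intervals and limits for counts of 0 cover counting error only. No doublet caller was run here, since the study kept capture sites with 1 live cell by microscopy. A deposited table of imputed values was not used. Estimated counts were summed by library and cluster (at least 3 cells), rounded and tested with edgeR 4.0.16 (quasi-likelihood, TMM, filterByExpr, Benjamini-Hochberg). This left out 3 E2-treated cells of cluster 1 in 2 libraries. A gene was called where its adjusted p was under 0.05 and its log2 fold change was past 0.5 in either direction. Shares of cells with a read were compared after thinning by exact two-sided permutation of libraries, whose smallest p is 1.08e-05. The clusters were compared by an absolute log2 difference above 1, with no p. Fits were tested on simulated data. The members and lists were chosen with earlier results of these data known. Genes of the 6 lists were named if called in responsive cells, and otherwise up to 4 a list by mean CPM. DESeq2 1.42.0, limma-voom (limma 3.58.1), RLE scaling, no gene filter, thinned or equally weighted cells, a minimum of 5 cells, labels for 3 clusters, a library block and leaving out each library were alternatives.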

Additional observations from a re-analysis of the deposited data

Results flagged for a closer look

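In 35 groups of members and libraries, 6 had 1 library farther from the rest than Dixon's 95% critical value. That value assumes normally distributed levels, which CPM with libraries at 0 need not be, so no rate by chance is given. Of the 6, 3 were E2 column 15. In that column *Pla2g4a* in cluster 1 was at 662 CPM, with the nearest library at 154 CPM. *Ptgs2* in cluster 1 was at 484 CPM there, with the nearest at 75.7 CPM. *Ptges3* in responsive cells was at 1012 CPM there, with the nearest at 289 CPM. *Ptges* was at 3.54 CPM in control library 8 (nearest 1.11 CPM) and at 32.0 CPM in E2 column 11 (nearest 0.439 CPM) of responsive cells. *Ptgds* in cluster 1 was at 59.3 CPM in E2 column 17, with all other E2 libraries at 0.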

How the results depend on the processing

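The call of *Ptgis* in responsive cells held under all alternatives run, and no other member passed in responsive cells under any of them. Genes called in responsive cells were 236 with DESeq2 against 141. In cluster 1 they were 52 with DESeq2, 1 with no gene filter, 0 with thinned cells, 14 with equally weighted cells and 1 to 9 with a library left out, against 7. Over all cells they were 324 with DESeq2 against 177. For the interaction they were 109 with DESeq2, 13 with limma-voom, 10 with thinned cells, 47 with equally weighted cells, 0 with the library as a block and 15 to 44 with a library left out, against 21. RLE moved the median of all genes from -0.19 to -0.02 in the interaction, with 7 higher and 15 lower calls against 2 and 19, and from -0.06 to 0.05 in cluster 1. Between clusters, 6 members were past the fold with limma-voom and 5 with no gene filter, equally weighted cells or the block, against 3, and 1283 genes with thinned cells against 2794. Without thinning 227 genes were called by share, against 121, and 67 to 111 with a library left out, which left 0 to 1 members called.

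Directions turned as follows, none of them in a called value. In responsive cells *Ptges3* was at -0.0199 with DESeq2. In cluster 1 *Pla2g4a* was at -0.44 with limma-voom, -0.00571 with no filter, -0.0330 thinned, -0.36 weighted equally and -0.66 with at least 5 cells. *Ptges3* was at -0.0883 with limma-voom, -0.0655 with no filter, -0.17 weighted equally and -0.0827 with at least 5 cells, *Ptgs2* at -0.35 with at least 5 cells and *Ptgr1* at -0.00786 weighted equally. Over all cells *Ptgs2* was at -0.12, -0.00705 and -0.0219 with limma-voom, no filter and equal weights. In the interaction *Ptgs2* was at -0.11 with at least 5 cells and *Ptgr1* at 0.16, 0.16 and 0.0636 with DESeq2, RLE and at least 5 cells. Between clusters *Ptgs2* was at 0.21 and 0.18 with DESeq2 and RLE, and *Ptges2* at 0.27 thinned. Unthinned share differences were 0.157 points for *Ptgds*, -0.923 for *Ptges2*, -1.54 for *Ptgr1* and -8.92 for *Pla2g4a*, and with at least 2 reads they were -1.93 for *Ptgr1* and -0.0356 for *Pla2g4a*. Without the cell with the most reads, an alternative chosen after seeing the data, *Ptges* was at -0.12 in responsive cells. With each library left out, log2 changes ranged from -0.15 to 0.24 for *Ptgds* and -0.0215 to 0.48 for *Ptges3* in responsive cells, from -0.66 to 0.28 for *Pla2g4a*, -0.0827 to 0.19 for *Ptges3*, -0.12 to 0.47 for *Ptgr1* and -0.35 to 1.64 for *Ptgs2* in cluster 1, from -0.0823 to 0.44 for *Ptgds* and -0.32 to 0.11 for *Ptgs2* over all cells, from -0.43 to 0.10 for *Ptgr1* in the interaction and from -0.68 to 0.12 for *Ptgs2* between clusters. Share differences ranged from -3.41 to 0.297 points for *Ptgds* and -0.593 to 3.79 for *Pla2g4a*. The cause was not tested.

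No analysis paired between control and E2 was possible because their libraries share no column number. The precision in cluster 1 rests on 42 E2-treated cells, and *Ptges* had too few reads to be tested.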
